A study of Mus musculus with 9 samples.

Results

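The genes described are 10 genes of axon injury and neuronal stress, namely *Map3k12*, *Jun*, *Atf3*, *Ecel1*, *Ddit3*, *Chac1*, *Sarm1*, *Nmnat2*, *Bax* and *Bcl2l1*. They were taken by symbol from the 25239 gene names in the deposited tables. Each was found in all 9 tables, on 1 row per table, and 9 of the 10 passed the filter for testing. Expression was measured by bulk RNA-Seq of whole retinas from C57BL/6J mice at P42, with a pair of retinas from 1 mouse in each library. There were 3 wild type mice (+/+), 3 mice with 1 knock-in allele (Rbpms-CreERT2/+, here Cre/+) and 3 mice with 2 knock-in alleles (Rbpms-CreERT2/CreERT2, here Cre/Cre). The allele carries a P2A-CreERT2 cassette in frame at the end of the coding sequence of *Rbpms*, a gene expressed in retinal ganglion cells (RGCs), and was derived by Cas9 editing and germline transmission. CreERT2 is a Cre recombinase that a ligand, tamoxifen, moves into the nucleus. No ligand and no nerve injury is named in the labels for any group, so the comparison asks whether the allele itself goes with an injury or stress response in the retina. Ganglion cells are a small share of the retina and several of these genes are also transcribed in other retinal cells. In such bulk libraries, fewer cells of a type and less RNA per cell cannot be told apart.

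When an axon of a ganglion cell is damaged, the dual leucine zipper kinase DLK, the product of *Map3k12*, activates the JNK kinases, which phosphorylate JUN. JUN, together with ATF3 and CHOP (encoded by *Ddit3*), changes transcription in the cell body, and BAX then permeabilizes mitochondria unless BCL-XL (encoded by *Bcl2l1*) holds it back. Loss of the axon itself runs through a separate route, in which the labile enzyme NMNAT2 makes NAD and the enzyme SARM1 destroys it. *Atf3*, *Jun*, *Ddit3*, *Ecel1* and *Chac1* are widely used as transcriptional readouts of injury or stress, whereas DLK, SARM1, NMNAT2, BAX and BCL-XL are controlled largely at the protein level, which RNA-Seq does not measure.

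Levels are given as TPM, the share of a library's transcripts scaled to a sum of 1000000, with gene length taken into account, so that levels of different genes can be set side by side. In all 3 genotypes the means followed the same order, from *Ddit3* through *Sarm1*, *Bax*, *Bcl2l1*, *Map3k12*, *Jun*, *Nmnat2*, *Atf3* and *Chac1* to *Ecel1*. In the +/+ libraries, *Ddit3* (133 to 145 TPM) lay clear of *Sarm1* (80.9 to 98.8 TPM). *Sarm1* and *Bax* (80.9 to 82.4 TPM) overlapped, as did *Map3k12* (58.7 to 64.7 TPM) and *Jun* (40.4 to 58.9 TPM). The other neighbours in this order did not overlap in +/+, although *Atf3* (8.51 to 8.97 TPM) and *Chac1* (6.75 to 8.43 TPM) lay close together. The place of *Bcl2l1* is uncertain, since its deposited coverage was 3.53 to 4.67 reads per base, below that of *Chac1* (6.26 to 12.2), against 61.4 to 82.5 for *Map3k12*. *Ecel1* stood apart, with at most 0.461 TPM in any library. By the mean over all 9 libraries, *Ddit3* lay above 94.5% of the 25239 listed genes, while *Atf3* and *Chac1* lay above 56.1% and 54.1%, respectively. The listed genes include those at or near 0.

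**Figure D1:**
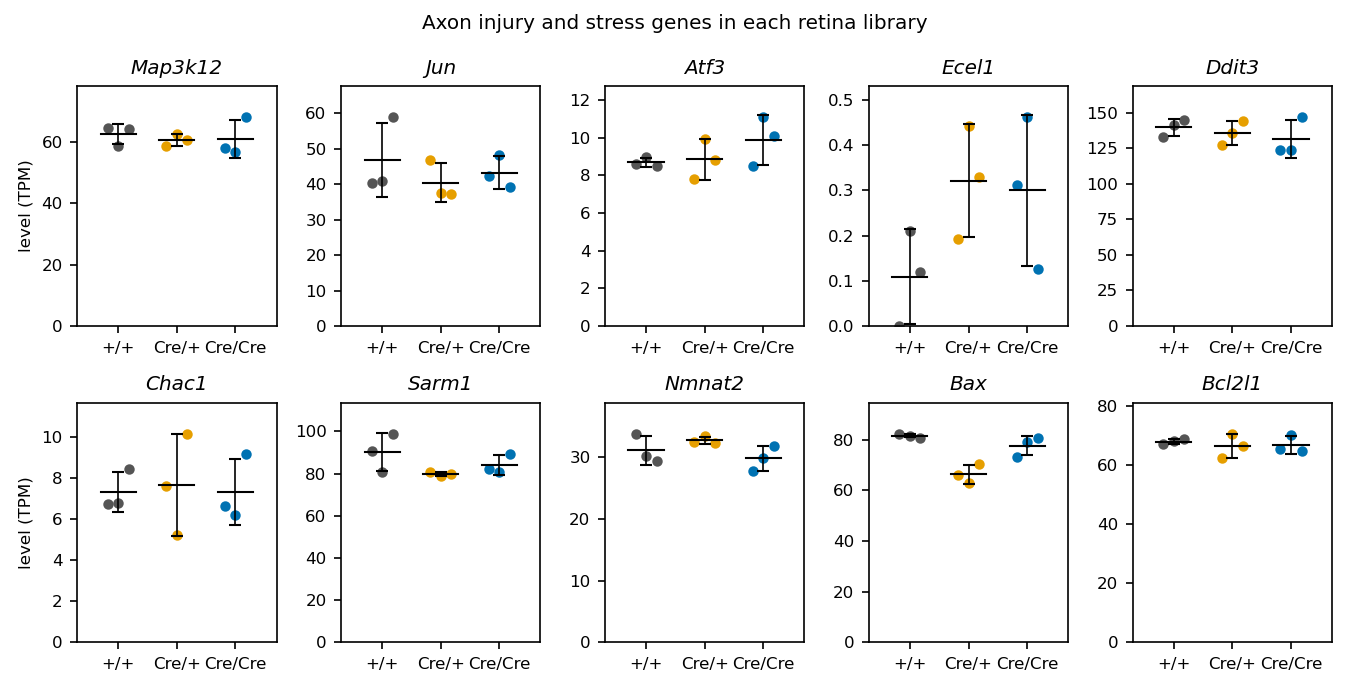
TPM of each of the 10 genes (vertical axes from 0, each with its own scale) in the 3 libraries of +/+, Cre/+ and Cre/Cre retinas (points), with the mean (line) and SD (bars, n = 3). Bax lay at 62.9 to 70.4 TPM in Cre/+ and at 80.9 to 82.4 TPM in +/+, and Ecel1 stayed under 0.5 TPM in every library.

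None of the 9 tested genes passed a Benjamini-Hochberg adjusted p of 0.05 in limma: 0 of 9 were called in Cre/+ retinas and 0 of 9 in Cre/Cre retinas, each against +/+. The same limit called 0.00658% of all 15198 tested genes in Cre/+ and 0.00658% in Cre/Cre. In Cre/Cre against Cre/+, 0 of 9 were called, beside 0.0132% of all genes, and in the trend per knock-in allele, 0 of 9, beside 0.00658%. At an unadjusted p under 0.05 in limma, 1 of the 9 genes, *Bax*, was counted in Cre/+ (10.7% of all genes), 0 in Cre/Cre (6.97%), 1 in Cre/Cre against Cre/+ (6.58%), again *Bax*, and 0 in the trend (6.24%). The libraries did not overlap for 2 of the 9 genes between Cre/+ and +/+ (22.2% of all genes), *Sarm1* and *Bax*. They did not overlap for 1 of 9, *Bax*, between Cre/Cre and +/+ (10.8%), nor for 2 of 9, *Nmnat2* and *Bax*, between Cre/Cre and Cre/+ (12% of all genes).

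The difference of log2(TPM + 1) from +/+ lay between -0.29 (*Bax*) and 0.07 (*Nmnat2*) in Cre/+, with a median of -0.04 and 6 of 9 genes below 0, where the median of all tested genes was 0.00. In Cre/Cre it lay between -0.10 (*Sarm1*) and 0.16 (*Atf3*), with a median of -0.06 and 8 of 9 genes below 0, where the median of all genes was -0.02. The median in Cre/Cre came to -0.01, with 7 of 9 below 0, without Cre/Cre replicate 1, in which the ribosomal RNA precursor Rn45s took 9.21% of the TPM against at most 0.336% in the other 8 libraries. It came to -0.03, with 6 of 9 below 0, when the TPM of each library were rescaled by its median ratio to the other libraries. In Cre/+, the median moved to 0.00, with 4 of 9 below 0, without Cre/+ replicate 1. For all 9 genes the 95% confidence interval of the difference lay within 1 log2 unit, or 2-fold, of 0 in both comparisons. The widest was that of *Chac1*, from -0.40 to 0.45 in Cre/+ and from -0.43 to 0.41 in Cre/Cre.

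**Figure D2:**
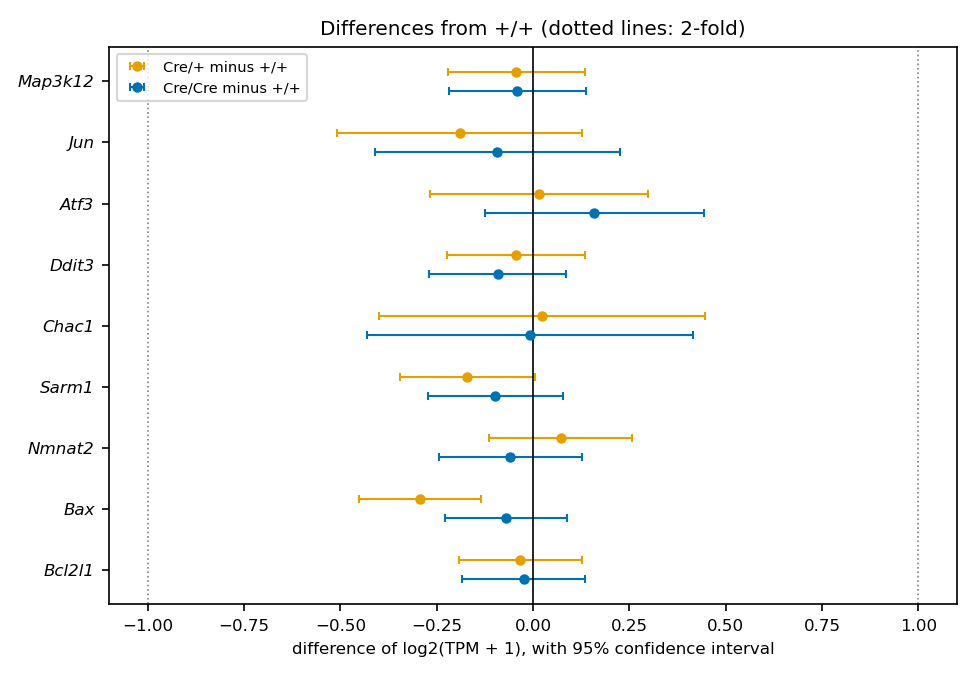
Difference of log2(TPM + 1) from +/+ for the 9 genes tested, in Cre/+ (orange) and Cre/Cre (blue), with 95% confidence intervals from limma; dotted lines mark a 2-fold change in either direction. The interval of Bax in Cre/+, from -0.45 to -0.14, is the one of the 18 intervals that leaves out 0.

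The first pair of genes carries the injury signal to the nucleus. *Map3k12*, on chromosome 15 of mm10 from 102497647 to 102517004 (minus strand), had 64.7, 58.7 and 64.2 TPM in +/+, 58.7, 62.5 and 60.6 TPM in Cre/+, and 57.9, 56.8 and 68.1 TPM in Cre/Cre. The highest and the lowest of the 9 libraries were both Cre/Cre, and the groups overlapped. Its difference from +/+ was -0.04 ± 0.08 (SE) on the log2 scale in both Cre/+ and Cre/Cre. The annotated gene shares 2422 bases with *Pcbp2* on the opposite strand, and since the strand setting of the quantification is not given in the sources used here, its level is uncertain to that extent.

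*Jun*, on chromosome 4 from 95049036 to 95052222 (minus strand), encodes the transcription factor that JNK phosphorylates and that also drives its own gene. It had 40.4, 41.0 and 58.9 TPM in +/+, 46.7, 37.6 and 37.1 TPM in Cre/+, and 42.4, 48.2 and 39.3 TPM in Cre/Cre. The highest value was +/+ replicate 3, and the other 8 libraries lay between 37.1 and 48.2 TPM. The difference of *Jun* from +/+ was -0.19 ± 0.14 (SE) in Cre/+ and -0.09 ± 0.14 in Cre/Cre on the log2 scale (unadjusted p = 0.214 and 0.534, limma). Without +/+ replicate 3, the difference was -0.02 in Cre/+ and 0.08 in Cre/Cre.

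*Atf3* and *Ecel1* are readouts that injured neurons switch on from a low baseline. *Atf3*, on chromosome 1 from 191170297 to 191183333 (minus strand), encodes a stress-inducible transcription factor. It had 8.62, 8.97 and 8.51 TPM in +/+, 7.78, 9.93 and 8.82 TPM in Cre/+, and 8.48, 11.1 and 10.1 TPM in Cre/Cre. Cre/Cre replicates 2 and 3 lay above all other libraries and Cre/Cre replicate 1 below all 3 +/+ libraries, so the groups overlapped. Of the 9 genes, *Atf3* had the highest difference from +/+ in Cre/Cre, 0.16 ± 0.13 (SE) on the log2 scale with a 95% interval from -0.12 to 0.44 (adjusted p = 0.885, limma). This difference was 0.25 without Cre/Cre replicate 1 (adjusted p = 0.551, limma). It was 0.18 after median-ratio scaling (adjusted p = 0.698, limma), a scale on which the Cre/Cre and +/+ libraries did not overlap. In Cre/+ it was 0.02 ± 0.13, and per knock-in allele 0.08 ± 0.07 (unadjusted p = 0.240, limma).

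*Ecel1*, on chromosome 1 from 87147655 to 87156356 (minus strand), encodes an endopeptidase of neurons that is induced by nerve damage. It was listed at 0, 0.209 and 0.118 TPM in +/+, 0.193, 0.442 and 0.329 TPM in Cre/+, and 0.311, 0.461 and 0.126 TPM in Cre/Cre. The groups overlapped, and the deposited coverage of the gene was at most 0.561 reads per base. Its mean lay below the filter of a mean of 1 TPM. When all 20504 genes above 0 were tested, its log2(TPM + 1) was higher than in +/+ by 0.25 ± 0.13 (SE) in Cre/+ (adjusted p = 0.578, limma) and by 0.22 ± 0.13 in Cre/Cre (adjusted p = 0.827, limma). In TPM its mean was 0.109 in +/+, 0.321 in Cre/+, or 294% of +/+, and 0.300 in Cre/Cre, or 274%. The log2(TPM + 1) scale understates such ratios of values near 0. No difference passed the adjusted test with 3 mice per group, and a difference at this level is not excluded.

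*Ddit3* and *Chac1* are readouts of the integrated stress response, in which the factor ATF4 raises CHOP, and both raise *Chac1*. *Ddit3*, on chromosome 10 from 127290793 to 127296288 (plus strand), had 133, 141 and 145 TPM in +/+, 127, 136 and 144 TPM in Cre/+, and 124, 123 and 147 TPM in Cre/Cre. The 3 groups overlapped, and the highest and lowest libraries were both Cre/Cre. The difference from +/+ was -0.04 ± 0.08 (SE) in Cre/+ and -0.09 ± 0.08 in Cre/Cre on the log2 scale. *Ddit3* shares 68 annotated bases with *Mars1* on the opposite strand.

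*Chac1*, on chromosome 2 from 119351242 to 119354327 (plus strand), encodes an enzyme that breaks down glutathione. It had 6.75, 6.78 and 8.43 TPM in +/+, 7.61, 5.21 and 10.2 TPM in Cre/+, and 6.63, 6.20 and 9.15 TPM in Cre/Cre. The spread within Cre/+ was wider than any difference between the group means, and its coefficient of variation over the 9 libraries, 20.9%, was the highest of the 9 tested genes. The difference from +/+ was 0.02 ± 0.20 (SE) in Cre/+ and -0.01 ± 0.20 in Cre/Cre on the log2 scale. Its sign turned in 4 of 16 alternative fits in each comparison. The deposited coverage of *Chac1* was 6.26 to 12.2 reads per base, beside 9.30 to 14.0 reads per base for *Atf3* and at least 30.4 for the other tested genes except *Bcl2l1*.

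Promoters of *Atf3*, *Chac1* and *Ddit3* are shown because these genes are induced by stress through their promoters and each held one of the motifs searched for. RefSeq promoter windows of GRCm38.p6, the assembly of mm10, matched all 10 genes, with 13 windows in all, each from 250 bases before to 50 bases after a transcription start. They were searched on both strands for TGANTCA, the AP-1 motif bound by JUN and ATF3 dimers, for TGACGTCA, the cyclic AMP response element, and for TGATGNAAN, the composite motif of ATF4 and C/EBP factors. Over all 32851 windows of this length, 7.81% held the first, 1.79% the second and 3.95% the third. The composite motif occurred in *Atf3* and *Chac1*, on the strand opposite to the one printed, and the AP-1 motif in *Ddit3*. The windows of the other 7 genes held none of these letters, which says nothing about binding. The 250 bases before the start are printed 5′ to 3′ on the strand of the gene with the motif in capitals. They are chr1:191183334-191183583 (minus strand) for *Atf3*, with the motif from 111 to 103 bases before the start, chr2:119350992-119351241 (plus strand) for *Chac1*, with the motif from 194 to 186 bases before it, and chr10:127290543-127290792 (plus strand) for *Ddit3*, with the motif from 242 to 236 bases before it.
Atf3: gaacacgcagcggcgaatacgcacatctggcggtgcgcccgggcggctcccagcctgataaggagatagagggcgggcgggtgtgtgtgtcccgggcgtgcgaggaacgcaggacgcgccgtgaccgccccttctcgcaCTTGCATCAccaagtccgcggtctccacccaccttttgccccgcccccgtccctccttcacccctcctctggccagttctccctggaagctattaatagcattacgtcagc
Chac1: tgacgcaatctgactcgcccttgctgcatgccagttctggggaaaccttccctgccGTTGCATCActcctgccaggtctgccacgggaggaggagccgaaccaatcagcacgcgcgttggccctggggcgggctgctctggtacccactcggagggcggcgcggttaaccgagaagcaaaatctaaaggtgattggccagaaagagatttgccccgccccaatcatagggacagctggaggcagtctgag
Ddit3: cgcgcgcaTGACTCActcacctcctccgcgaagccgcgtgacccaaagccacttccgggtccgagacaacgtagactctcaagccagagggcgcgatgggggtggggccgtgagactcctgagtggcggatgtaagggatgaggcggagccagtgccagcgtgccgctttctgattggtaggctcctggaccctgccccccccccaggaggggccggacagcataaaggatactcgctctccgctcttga
Neither gene with the composite motif passed the adjusted test in limma in either comparison. Their levels followed different libraries, since *Atf3* was highest in Cre/Cre replicate 2 and *Chac1* in Cre/+ replicate 3.

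*Sarm1* and *Nmnat2* set the balance of NAD in the axon. *Sarm1*, on chromosome 11 from 78472330 to 78497754 (minus strand), had 90.8, 80.9 and 98.8 TPM in +/+, 80.9, 78.7 and 79.7 TPM in Cre/+, and 82.3, 80.5 and 89.2 TPM in Cre/Cre. All Cre/+ libraries lay below all +/+ libraries, but the lowest +/+ and the highest Cre/+ library were almost level. The difference from +/+ was -0.17 ± 0.08 (SE) in Cre/+ on the log2 scale, with an interval from -0.35 to 0.00 (unadjusted p = 0.0545, adjusted p = 0.467, limma). Without +/+ replicate 3 the difference in Cre/+ was -0.10, and without +/+ replicate 2 it was -0.25. In Cre/Cre it was -0.10 ± 0.08.

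*Nmnat2*, on chromosome 1 from 152955101 to 153119261 (plus strand), encodes the NAD-making enzyme whose loss from the axon activates SARM1. It had 33.7, 30.2 and 29.3 TPM in +/+, 32.4, 33.4 and 32.2 TPM in Cre/+, and 27.7, 29.8 and 31.8 TPM in Cre/Cre. Both knock-in groups overlapped with +/+, whereas all Cre/Cre libraries lay below all Cre/+ libraries. The difference from +/+ was 0.07 ± 0.09 (SE) in Cre/+ and -0.06 ± 0.09 in Cre/Cre on the log2 scale. Between Cre/Cre and Cre/+ it was -0.13 ± 0.09 (unadjusted p = 0.154, adjusted p = 0.762, limma).

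*Bax* and *Bcl2l1* decide at the mitochondrion whether an injured ganglion cell dies. *Bax*, on chromosome 7 from 45461695 to 45466898 (minus strand), had 82.4, 81.7 and 80.9 TPM in +/+, 66.1, 62.9 and 70.4 TPM in Cre/+, and 73.4, 79.2 and 80.6 TPM in Cre/Cre. The Cre/+ libraries lay below all other 6, and the highest Cre/Cre library lay just under the lowest +/+ library. The mean was 81.6 ± 0.73 TPM (SD, n = 3) in +/+, 66.5 ± 3.74 TPM in Cre/+, or 81.4% of +/+, and 77.7 ± 3.84 TPM in Cre/Cre, or 95.2%. In Cre/+ the difference from +/+ was -0.29 ± 0.07 (SE) on the log2 scale, with an interval from -0.45 to -0.14 (unadjusted p = 0.00116, adjusted p = 0.327, limma). By p it was the gene of rank 51 among 15198, and it did not pass the test after adjustment. Over all 16 alternative fits the difference of *Bax* lay between -0.34 and -0.26, and the adjusted p in limma between 0.128 and 0.881.

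In Cre/Cre, the difference of *Bax* from +/+ was -0.07 ± 0.07 (SE) on the log2 scale (adjusted p = 0.913, limma), and the groups overlapped after median-ratio scaling. Between Cre/Cre and Cre/+ it was 0.22 ± 0.07 (unadjusted p = 0.00865, adjusted p = 0.700, limma), and these groups overlapped with FPKM in place of TPM. The comparisons of Cre/+ and Cre/Cre share the +/+ libraries. The summed level of blood genes was lowest in the same Cre/+ libraries, with 3 of the 6 tested below +/+. The 8 genes of that list summed to 164 to 252 TPM in +/+, 130 to 154 TPM in Cre/+ and 238 to 431 TPM in Cre/Cre. Its members did not move together, since *Hbb-bt* had 8.29 to 15.5 TPM in +/+ and 0 in each library of Cre/+, whereas *Hba-a1* was listed at 0 in all 3 +/+ libraries and at 88.9 TPM in Cre/+ replicate 3. Such near-identical globin genes can exchange reads. *Hbb-bt* was the 1 gene of all 15198 that passed the adjusted test in Cre/+ against +/+ (adjusted p = 0.00256, limma). It also passed in Cre/Cre against Cre/+ (adjusted p = 0.000448, limma). The part of the blood genes in the value of *Bax* was not tested.

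*Bcl2l1*, on chromosome 2 from 152758732 to 152831728 (minus strand), had 67.1, 68.1 and 68.7 TPM in +/+, 62.4, 70.6 and 66.3 TPM in Cre/+, and 65.6, 70.1 and 64.7 TPM in Cre/Cre. It varied least of the 10 genes, with a coefficient of variation of 3.91% over the 9 libraries, and the groups overlapped. The difference from +/+ was -0.03 ± 0.07 (SE) in Cre/+ and -0.02 ± 0.07 in Cre/Cre on the log2 scale. Its level carries a doubt, because the annotated gene shares 6306 bases with *Cox4i2* on the opposite strand and its deposited coverage, 3.53 to 4.67 reads per base, was far below what its TPM would give at the depth of these libraries.

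**Figure D3:**
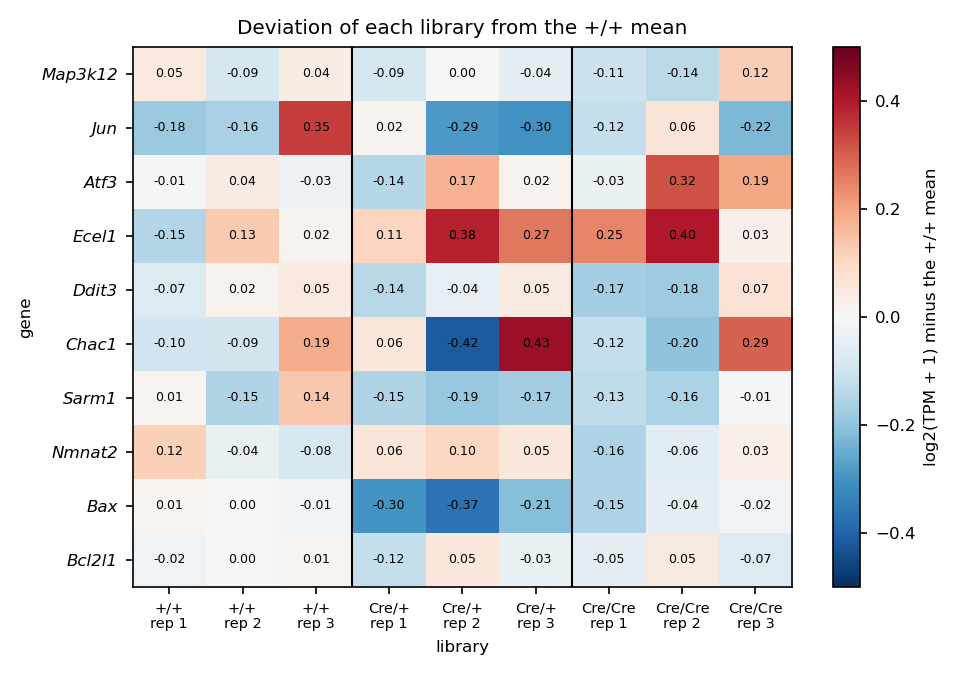
Deviation of log2(TPM + 1) from the +/+ mean (colour and printed values) for each of the 10 genes (rows) in each of the 9 libraries (columns), by genotype and replicate number. Bax lay between -0.37 and -0.21 in the 3 Cre/+ libraries, while Chac1 ran from -0.42 to 0.43 within Cre/+.

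Genes that act beside the 10 were described from lists of their pathways, which share no gene with them. Of 20 genes of DLK and JNK signalling, 0 passed the adjusted test in either comparison (limma). An unadjusted p under 0.05 was reached by 15% of them in Cre/+, beside 10.7% of all tested genes, and by 5% in Cre/Cre, beside 6.97%, so the counts lay near the background. In Cre/+ these were *Mef2a*, *Spag9* and *Atf2*, with values above +/+, and in Cre/Cre *Mapk8ip1*, with a value below +/+. The list's median difference was 0.03 in Cre/+ and -0.04 in Cre/Cre on the log2 scale. *Mapk8ip1*, which encodes the JNK scaffold JIP1, averaged 111 TPM in +/+, 103 TPM in Cre/+ and 98.3 TPM in Cre/Cre.

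Of 16 tested genes of axonal NAD maintenance, 0 passed the adjusted test in limma. At an unadjusted p under 0.05, 3 lay above +/+ (*Nampt*, *Zdhhc17* and *Zdhhc13*) and 1 below (*Nmnat1*) in Cre/+, or 25% beside 10.7% of all genes, and 1 lay below in Cre/Cre, again *Nmnat1*, or 6.25% beside 6.97%. *Nmnat1*, the nuclear relative of *Nmnat2*, averaged 10.7 TPM in +/+, 7.70 TPM in Cre/+ and 8.16 TPM in Cre/Cre, and the Cre/Cre and +/+ libraries overlapped. The median difference of the list was 0.03 in Cre/+ and 0.02 in Cre/Cre on the log2 scale.

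Of 36 genes of the integrated stress response and unfolded protein response, 0 passed the adjusted test in limma. An unadjusted p under 0.05 was reached by 6 in Cre/+, or 16.7% beside 10.7% of all genes, and by 3 in Cre/Cre, or 8.33% beside 6.97%. In Cre/+, *Hsp90b1*, *Dnajb9*, *Dnajc3* and *Atf6* lay above +/+ and *Atf4* and *Ddit4* below. In Cre/Cre, *Cebpg* and *Nupr1* lay above +/+ and *Atf4* below. *Atf4*, which encodes the factor above *Ddit3* and *Chac1*, averaged 437 ± 38.6 TPM (SD, n = 3) in +/+, 379 ± 16.0 TPM in Cre/+ and 386 ± 27.8 TPM in Cre/Cre. The Cre/+ libraries of *Atf4* lay below those of +/+ (unadjusted p = 0.0268, adjusted p = 0.421, limma), and the Cre/Cre libraries overlapped with them (unadjusted p = 0.0481, adjusted p = 0.715, limma). The list's median difference was 0.03 in Cre/+ and 0.01 in Cre/Cre on the log2 scale.

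Of 21 tested genes of the BCL-2 family and mitochondrial apoptosis, 0 passed the adjusted test in limma, with a median difference of 0.03 in Cre/+ and -0.03 in Cre/Cre on the log2 scale. *Bbc3*, which encodes the pro-apoptotic protein PUMA, averaged 6.67 ± 1.41 TPM (SD, n = 3) in +/+, 3.51 ± 1.13 TPM in Cre/+ and 4.20 ± 0.86 TPM in Cre/Cre. The lowest +/+ library had 5.83 TPM and the highest of the 6 knock-in libraries 5.19 TPM, so the groups did not overlap. Its difference of log2(TPM + 1) was -0.79 ± 0.21 (SE) in Cre/+ (unadjusted p = 0.0016, adjusted p = 0.348, limma) and -0.56 ± 0.21 in Cre/Cre (unadjusted p = 0.0159, adjusted p = 0.647, limma). The others at an unadjusted p under 0.05 were *Bnip3l* and *Xiap*, both above +/+ in Cre/+, which makes 14.3% of the list in Cre/+ and 4.76% in Cre/Cre, beside 10.7% and 6.97% of all genes.

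Of 26 tested genes linked to injury and regeneration, 0 passed the adjusted test in limma. *Sprr1a*, which axotomized neurons induce, was listed at 0 in all 9 libraries. At an unadjusted p under 0.05, *Klf9* lay above +/+ and *Gadd45b* and *Tubb3* below in Cre/+, and *Gadd45b*, *Tubb3* and *Socs3* lay below in Cre/Cre, or 11.5% of the list in each, beside 10.7% and 6.97% of all genes. *Tubb3* is counted again among the ganglion cell markers below, and *Socs3* among the markers of Mueller glia and gliosis, so these lists are not independent. *Socs3*, which encodes an inhibitor of cytokine signalling, averaged 4.72 TPM in +/+, 3.88 TPM in Cre/+ and 2.60 TPM in Cre/Cre.

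Immediate early genes, which neurons raise within minutes of activity and with which *Jun* is often grouped, passed the adjusted test in 0 of 24 cases (limma). Their median difference was -0.20 in Cre/+, with 22 of 24 below 0 (49.6% of all genes), and -0.19 in Cre/Cre, with 21 of 24 below 0 (57.7% of all genes), on the log2 scale. Without Cre/Cre replicate 1 the median in Cre/Cre was -0.13, with 17 of 24 below 0 (43.8% of all genes). Without replicate 2, 22 of 24 lay below (63.8%), and without replicate 3, 15 of 24 (65.8%). With *Xist*, described below, as a covariate, 11 of 24 lay below in Cre/Cre (51.9% of all genes), with a median of 0.01. In Cre/+ this fit gave 17 of 24 (47.1%), with a median of -0.09. An unadjusted p under 0.05 was reached by 12.5% of the list in Cre/+ and 8.33% in Cre/Cre, beside 10.7% and 6.97% of all genes (limma). The summed levels overlapped, with 649 to 729 TPM in +/+, 535 to 716 TPM in Cre/+ and 481 to 904 TPM in Cre/Cre. *Nr4a3*, a nuclear receptor of this group, averaged 6.74 ± 1.66 TPM (SD, n = 3) in +/+, 2.73 ± 0.46 TPM in Cre/+ and 2.80 ± 1.66 TPM in Cre/Cre (unadjusted p = 0.00505 and 0.00331, adjusted p = 0.377 and 0.542, limma). *Fos* varied within the knock-in groups, from 24.4 to 73.95 TPM in Cre/+ and from 22.0 to 94.4 TPM in Cre/Cre, against 46.6 to 56.1 TPM in +/+. Over the 9 libraries, which share their genotypes, Pearson's r of *Jun* was 0.71 with *Ier2*, 0.70 with *Junb* and 0.67 with *Fos*. It was lower with the others compared, at 0.58 with *Egr1*, 0.52 with *Dusp1* and 0.39 with *Zfp36*. The part of these genes in the level of *Jun* was not tested.

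**Figure D4:**
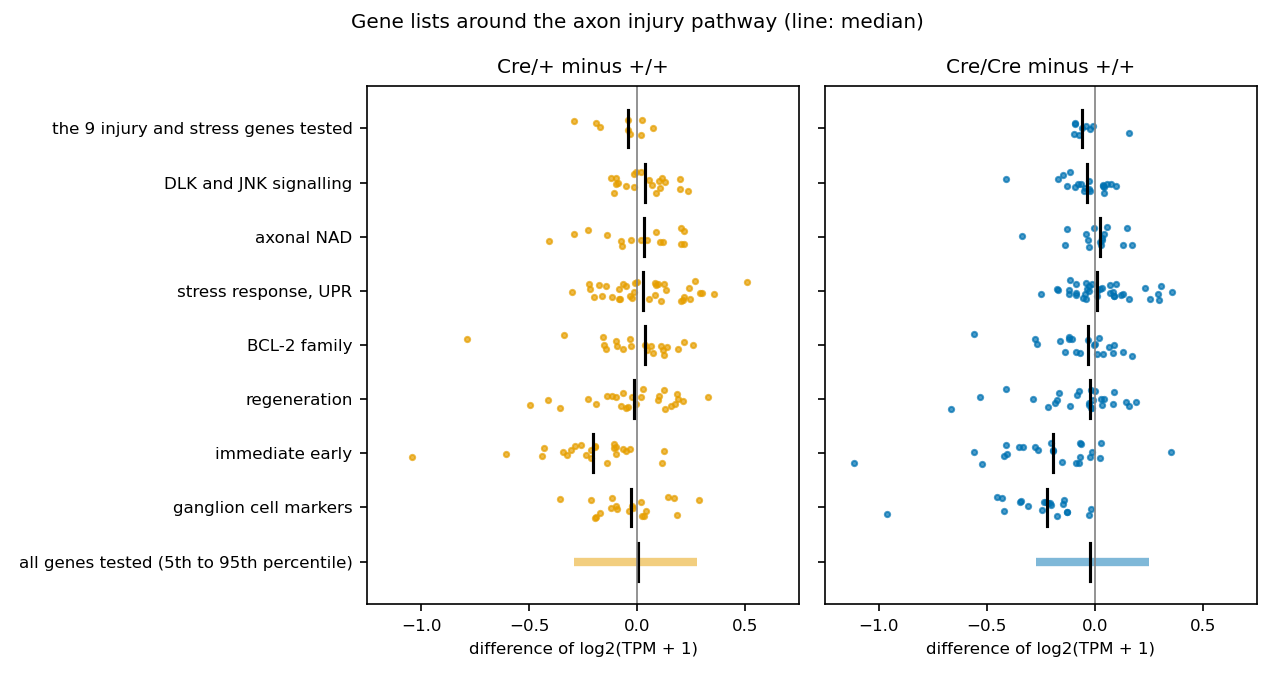
Difference of log2(TPM + 1) from +/+ in Cre/+ (left) and Cre/Cre (right) for each tested gene (points) of the injury and stress genes, of 6 lists around them and of ganglion cell markers, with the median of each list (black line); the bar at the bottom spans the 5th to the 95th percentile of all tested genes. The median of the ganglion cell markers was -0.03 in Cre/+ and -0.22 in Cre/Cre, that of the 9 injury and stress genes -0.04 and -0.06.

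Ganglion cell markers were set beside the injury genes because these cells express the edited gene, while the allele is in every cell. All 20 were detected and tested. In Cre/Cre, 20 of 20 lay below +/+ (57.7% of all genes), with a median difference of -0.22 on the log2 scale. Of these, 11 had an unadjusted p under 0.05 (6.97% of all genes) and 1, *Rbpms* itself, passed the adjusted test (adjusted p = 0.000581, limma). All these counts include *Rbpms*, the edited gene. Markers of other retinal cells also lay mostly below +/+ in Cre/Cre. The counts were 14 of 16 for photoreceptors and 9 of 10 for bipolar cells. They were 14 of 15 for amacrine and horizontal cells and 15 of 18 for Mueller glia and gliosis. An unadjusted p under 0.05 was reached by 18.8%, 20%, 20% and 5.56% of these lists, in that order (limma). In Cre/+, 12 of 20 ganglion cell markers lay below +/+ (49.6% of all genes) and 4 had an unadjusted p under 0.05 (10.7% of all genes, limma). The list summed to 2284 to 2394 TPM in +/+, 2186 to 2282 TPM in Cre/+ and 1698 to 2056 TPM in Cre/Cre. The lowest sum was that of Cre/Cre replicate 1, the library with the high share of Rn45s, in which the sums of photoreceptor, bipolar, amacrine and Mueller glia markers were also the lowest of the 9. Without it, 17 of 20 lay below +/+ (43.8% of all genes), with a median of -0.12, and 7 had an unadjusted p under 0.05 (9.47% of all genes). After median-ratio scaling, 19 of 20 lay below (49% of all genes), with a median of -0.19, and 10 had an unadjusted p under 0.05 (8.38%, limma). With *Xist*, described below, as a covariate, 20 of 20 lay below (51.9% of all genes), with a median of -0.19. In that fit, 5 had an unadjusted p under 0.05 (5.19% of all genes, limma). *Nefh*, a neurofilament gene of large axons, averaged 104 ± 5.78 TPM (SD, n = 3) in +/+, 97.3 ± 5.22 TPM in Cre/+ and 77.6 ± 3.26 TPM in Cre/Cre (adjusted p = 0.126 in Cre/Cre, limma). *Rbpms*, the edited gene, had 38.4 to 43.4 TPM in +/+, 31.3 to 33.1 TPM in Cre/+ and 19.1 to 24.2 TPM in Cre/Cre, so the labels and the gene went together. The part of ganglion cell RNA in the values of the injury and stress genes was not tested. Microglial markers, which rise in an inflamed retina, summed to 116 to 127 TPM in +/+, 115 to 127 TPM in Cre/+ and 108 to 126 TPM in Cre/Cre. Of these markers, 0 of 14 had an unadjusted p under 0.05 in either comparison, beside 10.7% and 6.97% of all genes (limma). Their median SE was 0.18 on the log2 scale, against 0.11 for all genes, so this count says little about inflammation.

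The libraries held 4.05 to 4.65 aligned gigabases by the ratio of coverage to FPKM. Lens genes, whose RNA can enter a retina sample at dissection, summed to 336 to 371 TPM in +/+, 29.1 to 285 TPM in Cre/+ and 131 to 1481 TPM in Cre/Cre. The source of this RNA was not tested. *Xist*, transcribed from the inactive X chromosome of female cells, was at 2.08 to 3.16 TPM in Cre/+ replicate 3 and Cre/Cre replicates 1 and 3. It was at 516 to 585 TPM in the other 6 libraries, among them all of +/+. By this transcript, sex was not balanced over the genotypes, and its part in the differences from +/+ cannot be fully told apart from that of genotype. With *Xist* as a covariate, 0 of the 9 injury and stress genes were called in any comparison, and *Bax* differed from +/+ by -0.31 in Cre/+ on the log2 scale (adjusted p = 0.434, limma).

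For the 3 of the 10 genes that varied most on the log2 scale, *Chac1*, *Jun* and *Ecel1*, the genes of at least 10 TPM with the most similar pattern over the 9 libraries were sought by Pearson's r of log2(TPM + 1). They were *Elk4* (0.96), *Kcnd1* (0.95) and *Hspb1* (0.95) for *Chac1*, and *Ctdsp1* (0.95), *Coq2* (0.95) and *Scamp4* (0.94) for *Jun*. Those for *Ecel1*, *Igflr1* (0.87), *Zmynd19* (0.85) and *Mir703* (0.85), follow a gene near 0. These are the highest of 10867 candidates (10866 for *Jun*) from 9 libraries that share their genotypes, and are given as a description. Among the 10 genes, the highest positive values were those of *Map3k12* with *Ddit3* (r = 0.69) and *Sarm1* (r = 0.67), and of *Sarm1* with *Bax* (r = 0.62). The value of largest size was negative, that of *Sarm1* with *Ecel1* (r = -0.75), a gene near 0.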

How the data were processed

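RNA-Seq was carried out on whole retinas of 9 mice, 3 per genotype. The authors made strand-specific poly(A) libraries, sequenced paired reads of 150 bases, and used Trimmomatic for trimming, HISAT2 for alignment to mm10 and StringTie for quantification. Versions, annotation and strand setting are not given in the sources used here. The deposited tables give TPM, which sum to 1000000 per library, FPKM, which the authors' pipeline scales by gene length and depth, and coverage, which as deposited is the average read depth per base of a gene. Counts were not used here, so the DESeq2 comparison of the study was not repeated.

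TPM were summed by gene name. The 15198 genes with a mean of at least 1 TPM over all libraries were tested with limma 3.58.1 (R 4.3.3) on log2(TPM + 1), with a robust prior that follows the mean, in 1 model of 9 libraries with genotype as its term and 6 residual degrees of freedom. Benjamini-Hochberg adjustment ran over all tested genes, with a limit of 0.05. The log2(TPM + 1) scale understates changes of low genes. A trend per knock-in allele was fitted separately. Depth was 4.05 to 4.65 gigabases, taken from the ratio of coverage to FPKM, and the spread between mice set the precision.

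The genes and lists were chosen with earlier results of these data known. Named are the 10 genes, *Rbpms*, *Xist* and Rn45s as library checks, genes of the lists at an unadjusted p under 0.05 or needed to say what a list holds, and the 3 most similar genes of the 3 most variable. *Hbb-bt*, *Hba-a1*, *Fos*, *Junb*, *Ier2*, *Egr1*, *Dusp1* and *Sprr1a* were named to say what their lists hold. Further lists covered photoreceptor, bipolar, amacrine and horizontal cells, Mueller glia, retinal pigment epithelium and vessels. On simulated data for Cre/Cre against +/+ over 15198 genes, 176 of 200 genes lowered 2-fold, 110 lowered 1.5-fold and 0 lowered 1.2-fold were recovered. False calls were 8, 7 and 0, in that order. Noise was drawn for each gene separately, without effects shared by a library, and raised genes were not simulated. Alternatives were a pseudocount of 0.1, no filter, a replicate block, 2 genotypes per fit, median-ratio scaling, FPKM, *Xist* as a covariate and leaving out each library. Figures were drawn with matplotlib 3.10.9.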

Additional observations from a re-analysis of the deposited data

How the results depend on the processing

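In every alternative, 0 of the 9 injury and stress genes were called in each of the 4 comparisons. Their median difference ranged over single left-out libraries from -0.09 to 0.00 in Cre/+ and from -0.11 to -0.01 in Cre/Cre, and over the other alternatives from -0.09 to -0.04 and from -0.10 to -0.03. The differences that turned sign were all of genes that were not called, and the cause was not tested. With FPKM they were *Atf3* in Cre/+ (-0.00505) and, in Cre/Cre against Cre/+, *Map3k12* (-0.0213) and *Bcl2l1* (-0.0166). With median-ratio scaling they were *Chac1* (0.0165) and *Bcl2l1* (0.00394) in Cre/Cre, and *Chac1* (0.00824) and *Bcl2l1* (0.00197) in the trend. With *Xist* as a covariate they were *Chac1* in Cre/+ (-0.118), *Jun* (0.0402) and *Bcl2l1* (0.00956) in Cre/Cre, *Map3k12* in Cre/Cre against Cre/+ (-0.0194), and *Jun* (0.0194) and *Bcl2l1* (0.00468) in the trend.

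Over single left-out libraries, the ranges that crossed 0 in Cre/+ were *Atf3* (-0.0622 to 0.0956), *Ddit3* (-0.0888 to 0.00232), *Chac1* (-0.18 to 0.243) and *Bcl2l1* (-0.0773 to 0.00979). In Cre/Cre they were *Map3k12* (-0.122 to 0.00684), *Jun* (-0.185 to 0.0811) and *Chac1* (-0.16 to 0.0877), in Cre/Cre against Cre/+ *Map3k12* (-0.0776 to 0.051), *Chac1* (-0.252 to 0.171) and *Bcl2l1* (-0.0345 to 0.0525), and in the trend *Jun* (-0.0938 to 0.0449), *Chac1* (-0.0721 to 0.0422) and *Nmnat2* (-0.0561 to 0.000353). All other signs held in these fits.

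The main model did not pair libraries by replicate number. Deviations of same-numbered libraries from their group means correlated between -0.116 and 0.128, which cannot show whether these libraries shared a litter or a batch. With the replicate number as a block, 0 of the 9 genes were called, *Bax* in Cre/+ had an adjusted p of 0.480 in limma, and calls among all genes were 1 in each comparison. Among all genes, calls ranged from 0 (FPKM) to 5 (without Cre/+ replicate 3) in Cre/+, beside 1 as reported, and up to 5 (only the 2 genotypes compared) in Cre/Cre, beside 1. They ranged from 1 to 8 (without Cre/Cre replicate 3) in Cre/Cre against Cre/+, beside 2, and reached 4 (without +/+ replicate 3) in the trend, beside 1. In simulation of Cre/Cre against +/+, 0 of 200 genes lowered 1.2-fold were recovered, so at 3 mice per group a missing call says little about differences of that size. Raised genes and the other comparisons were not simulated. The fits of ganglion cell markers and immediate early genes without single Cre/Cre libraries, after median-ratio scaling and with *Xist* as a covariate were chosen after seeing the data. After median-ratio scaling, 19 of 24 immediate early genes lay below +/+ in Cre/Cre (49% of all genes). The tables give no counts, so the counting error of *Ecel1*, *Chac1* and *Atf3* is unknown.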

Other observations

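The RNA ratio within 2 pairs of opposing genes was looked at after the values were seen, and is given without a test. The ratio of *Bax* to *Bcl2l1* in TPM was 1.23, 1.20 and 1.18 in +/+, 1.06, 0.891 and 1.06 in Cre/+, and 1.12, 1.13 and 1.25 in Cre/Cre. The Cre/+ libraries lay below the other 6, and those of Cre/Cre overlapped with +/+. The level of *Bcl2l1* carries the doubt given above, which its ratio shares. The ratio of *Nmnat2*, which protects axons, to *Sarm1*, which degrades them, was 0.372, 0.374 and 0.296 in +/+, 0.401, 0.424 and 0.404 in Cre/+, and 0.337, 0.370 and 0.357 in Cre/Cre. Here the Cre/+ libraries lay above the other 6. A ratio within a library does not depend on its scaling, but it does not show which of the genes differs. Ratios of other gene pairs were not computed, so no background share stands beside these. Among single genes, 22.2% of all tested did not overlap between Cre/+ and +/+, *Bax* and *Sarm1* among them. The ratios are of RNA and say nothing about the proteins.

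Of 18 markers of Mueller glia and gliosis, 0 passed the adjusted test in limma, with a median difference of -0.05 in Cre/+ and -0.11 in Cre/Cre on the log2 scale. The medians in Cre/+ and Cre/Cre were -0.03 and -0.07 for 16 photoreceptor markers, 0.03 and -0.09 for 10 bipolar cell markers, and 0.08 and -0.07 for 15 markers of amacrine and horizontal cells. They were 0.51 and 0.14 for 8 tested genes of the retinal pigment epithelium, and 0.07 and -0.03 for 11 genes of vessels and smooth muscle. None of these lists held a gene past the adjusted p of 0.05 in limma.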
